A study of Mus musculus with 21 samples.

Results

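RNA-seq was used to ask whether irisin changed gene expression differently in mice that had received the neurotoxin MPTP than in mice that had not. The delayed treatment experiment held 12 of the 21 mice of the series, in 4 groups of 3, and each of its 21922 tested genes was given an interaction value. This value is the log2 fold change of MPTP + irisin mice over MPTP mice minus the log2 fold change of irisin mice over control mice. All mice were male C57BL/6 mice, 6 weeks old by the labels, which name no substrain. Control mice were injected with ddH2O for 10 days. Irisin mice received ddH2O for 5 days and then irisin at 200 μg/kg per day for 5 days, and MPTP mice received MPTP at 30 mg/kg per day for 5 days and ddH2O for 5 days. MPTP + irisin mice received 5 days of the same MPTP dose followed by 5 days of the same irisin dose. All injections were intraperitoneal, and the irisin was exogenous, so that the model concerns peripheral delivery of the protein and not its release by muscle. The labels give the tissue as midbrain, while the methods describe nigral tissue dissected by hand. The unit was one mouse, and the groups were different animals.

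MPTP is converted by monoamine oxidase B in glia to MPP+, which enters dopaminergic neurons through the dopamine transporter and blocks mitochondrial complex I. Dopaminergic neurons of the substantia nigra are lost after this treatment, which makes it a widely used model of Parkinson's disease. Irisin is the released part of the muscle membrane protein FNDC5 and binds integrins that contain the αV subunit. In a design of this kind the interaction is 0 where irisin does the same to a gene with and without the toxin. A positive interaction means that the irisin effect lay higher in the MPTP treated mice, and a negative one that it lay lower there. Each of the 4 groups carries the same weight in it, so a gene for which any one group stands apart from the other 3 also has an interaction.

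The libraries held 48.8 to 77.2 M counts on genes. Control mice had 48.8 to 55.4 M, MPTP mice 57.8 to 77.2 M, irisin mice 52.9 to 59.0 M and MPTP + irisin mice 51.2 to 55.5 M. Genes of the mitochondrial chromosome took 8.48 to 9.50% of the counts in control mice, 8.04 to 8.71% in irisin mice, 7.65 to 7.80% in MPTP mice and 7.87 to 8.68% in MPTP + irisin mice. Summed markers of dopaminergic neurons were 711 to 752 CPM (counts scaled to library size) in control mice, 662 to 671 in irisin mice, 482 to 617 in MPTP mice and 492 to 570 in MPTP + irisin mice, and 1 of the 9 markers, Pitx3, was at 0 in at least 1 mouse. Markers of astrocytes, microglia, oligodendrocytes and endothelium were present in every mouse. Astrocyte markers summed to 2432 to 2524 CPM in irisin mice, below all others (2534 to 2740 CPM), and the sums of the other 3 cell types overlapped between groups. The part of this in the results was not tested.

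The interaction passed an adjusted p of 0.05 for 9 of the 21922 tested genes, or 0.0411% (quasi-likelihood test of edgeR, adjusted by Benjamini-Hochberg over all tested genes). Of these, 3 were positive, namely Wdfy1, Larp1 and Gm20632, and 6 were negative, namely Gm15446, Crb1, Gm10591, Gm10599, Gm17081 and Gm13301. The count was 19 without the first irisin mouse, 62 with DESeq2 run without a filter on low counts and 3 with limma on log2(FPKM + 1). At an unadjusted p under 0.05 there were 617 positive genes (2.81%) and 604 negative genes (2.76%), which together were 5.57% of the tested genes. The parts from which the interaction is made had few calls as well. MPTP + irisin mice differed from MPTP mice in 1 gene (0.00456%), which was Larp1. Irisin mice differed from control mice in 24 genes (0.109%). MPTP mice differed from control mice in 29 genes (0.132%), and MPTP + irisin mice differed from irisin mice in 1 gene (0.00456%). These counts were not stable. DESeq2 without a filter gave 34 and 144 calls for irisin with and without MPTP, and 178 and 35 for MPTP without and with irisin. Irisin in MPTP treated mice had 7 calls without the second or without the third MPTP + irisin mouse, and MPTP with irisin had 10 calls without the first irisin mouse. MPTP without irisin had 18 and 16 calls without the first and the second MPTP mouse. The standard error of the interaction had a median of 0.19 on the log2 scale over the 16083 genes with a mean of at least 1 CPM, against 0.14 for each of the 4 simple effects. The middle of the distribution of the interaction, from the 5th to the 95th percentile of these genes, ran from -0.55 to 0.56.

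The 2 irisin effects rest on different mice. Over the 16083 genes, which share the libraries of each group, Pearson's r between them was 0.07, and 55% of the genes had the same sign. Among all 21922 tested genes, both effects had an unadjusted p under 0.05 for 114, of which 72 moved the same way and 42 in opposite ways. The plot of the irisin effect without MPTP against that with MPTP shows where the 9 genes lay.

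**Figure D1:**
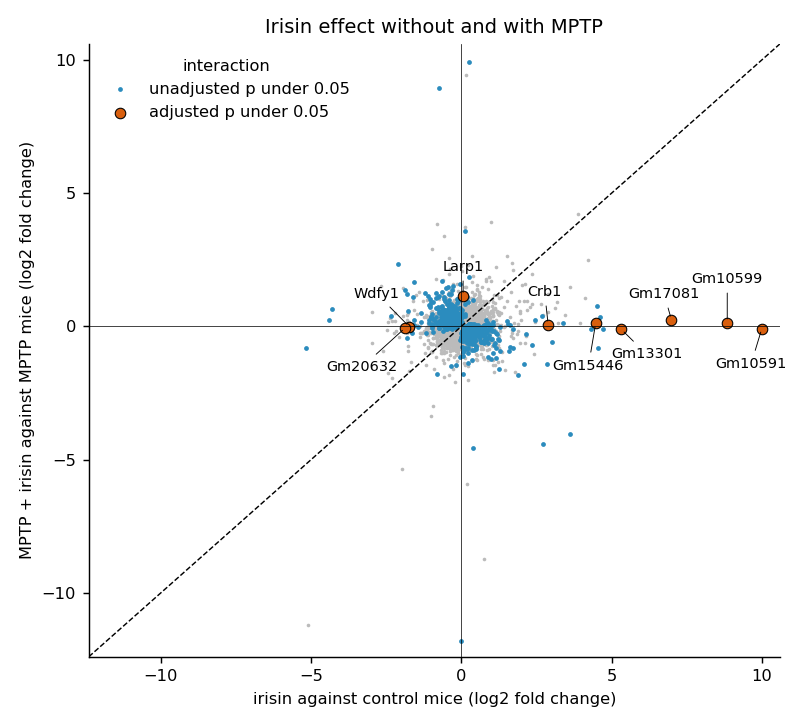
Irisin effect in mice without MPTP (horizontal axis, log2 fold change of irisin over control mice) and with MPTP (vertical axis, log2 fold change of MPTP + irisin over MPTP mice) for the 16083 genes with a mean of at least 1 CPM. The dashed line marks equal effects. Larp1 sits at 0.06 and 1.14, and the other 8 genes past the threshold lie near 0 on the vertical axis and away from 0 on the horizontal axis. Fitted values of genes with no or almost no counts in control mice depend on the prior count.

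Larp1 was the only gene past the threshold for which the irisin effect was in the MPTP treated mice. It encodes an RNA-binding protein that governs the translation of mRNAs for ribosomal proteins downstream of mTORC1. The gene lies at chr11:58009064-58062034 on the plus strand. Its level was 155, 153 and 163 CPM in control mice, 163, 176 and 152 CPM in irisin mice, 69.6, 76.1 and 77.6 CPM in MPTP mice and 172, 167 and 154 CPM in MPTP + irisin mice. The 3 MPTP mice were lowest, with no overlap with the 9 other mice, whose range was 152 to 176 CPM. The log2 fold change was 1.14 ± 0.07 (SE) for MPTP + irisin over MPTP mice, against 0.06 ± 0.07 for irisin over control mice. The interaction was 1.09 ± 0.10 with an adjusted p of 0.00198 in edgeR's quasi-likelihood test. The means of the other 3 groups spanned 0.07 on the log2 scale.

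The same gene did not follow the treatment in the pre-treatment experiment, in which irisin was given before MPTP. There its level was 65.9, 60.0 and 45.5 CPM in 3 control mice, 72.7, 162 and 70.0 CPM in 3 MPTP mice and 70.7, 61.5 and 154 CPM in 3 mice given irisin and then MPTP. One MPTP mouse and one irisin mouse of that experiment thus stood near the high level, and the other 7 mice near the low level. The 2 experiments were scaled separately, so that levels can be set beside each other only roughly.

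Wdfy1 had the positive interaction with the smallest p. It encodes an endosomal FYVE domain protein that takes part in Toll-like receptor signaling. The gene lies at chr1:79702262-79776143 on the minus strand. Its level was 79.7, 74.2 and 73.8 CPM in control mice, 24.7, 21.5 and 22.3 CPM in irisin mice, 23.2, 21.6 and 19.2 CPM in MPTP mice and 21.4, 20 and 22.1 CPM in MPTP + irisin mice. The control mice were above all 9 others, whose group means spanned 0.11 on the log2 scale. The log2 fold change was -1.73 ± 0.09 for irisin alone, -1.83 ± 0.09 for MPTP alone and -0.01 ± 0.09 for irisin in MPTP treated mice. The interaction was 1.72 ± 0.12, with an adjusted p of 0.000312 in the same test. In the pre-treatment experiment its level ranged from 3.88 to 37.4 CPM over the 9 mice.

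Gm15446, a protein coding gene model at chr5:109923400-109943936 on the plus strand, had the opposite pattern. It was measured at 0.642, 1.49 and 1.28 CPM in control mice, 26.8, 25.4 and 23.8 CPM in irisin mice, 21.1, 21 and 18.7 CPM in MPTP mice and 23.1, 20.9 and 21.8 CPM in MPTP + irisin mice. The control mice were far below all others, and the irisin mice were also above all others by a small margin. The interaction was -4.35 ± 0.30 (adjusted p = 0.000312, edgeR). Over all 9 mice of the pre-treatment experiment, controls included, the gene was at 36.6 to 45.8 CPM.

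Crb1 encodes a transmembrane protein of the Crumbs complex, which sets apical polarity in the retina and in neural epithelia. The gene lies at chr1:139197056-139377077 on the minus strand. It was at 0.642, 0.689 and 0.385 CPM in control mice, 4.70, 4.49 and 3.57 CPM in irisin mice, 3.59, 3.66 and 3.10 CPM in MPTP mice and 4.29, 3.08 and 3.46 CPM in MPTP + irisin mice. The control mice were again lowest without overlap, and the interaction was -2.82 ± 0.32 (adjusted p = 0.0106, edgeR). The 9 mice of the pre-treatment experiment had 3.33 to 5.27 CPM, which does not reach the level of these controls.

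**Figure D2:**
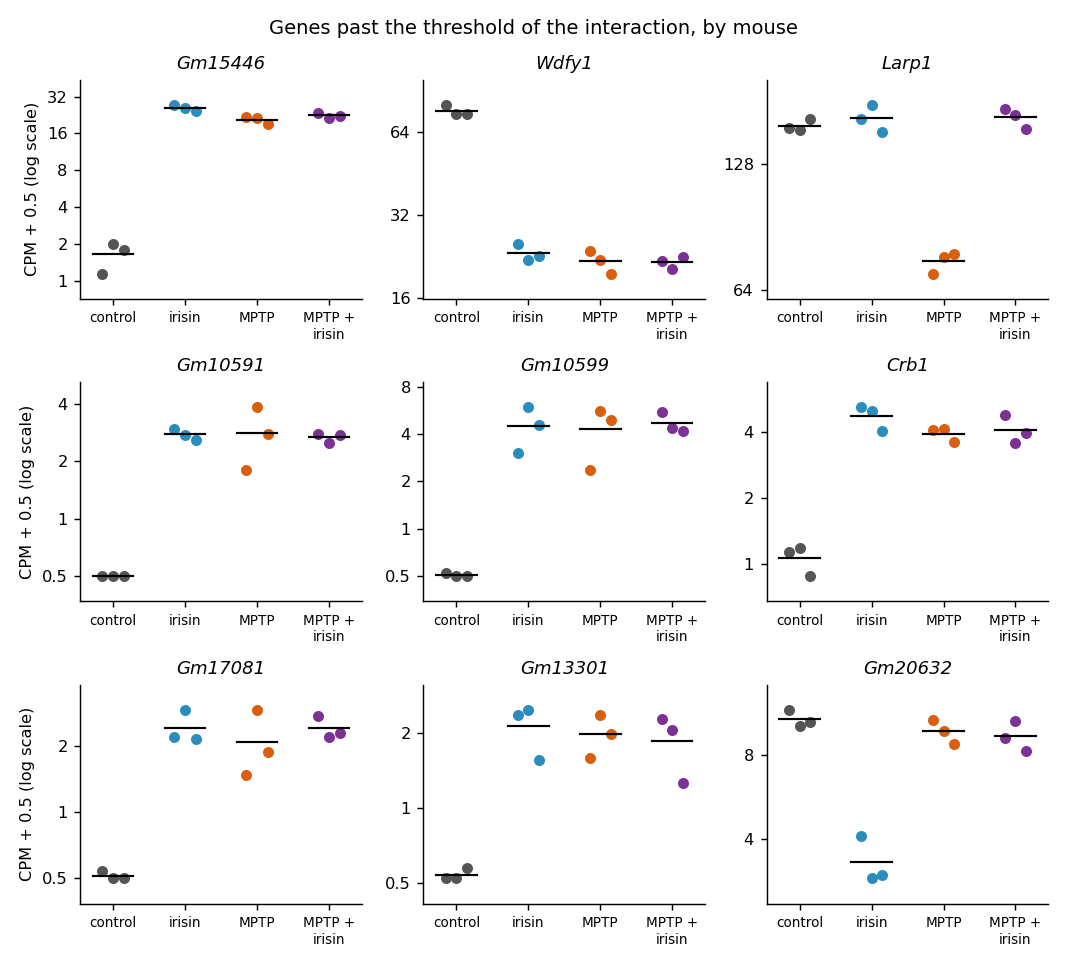
Level of the 9 genes past the threshold of the interaction (vertical axis, CPM + 0.5 on a log scale) in each mouse (points) and the group mean (line). The control mice stand apart in Gm15446, Wdfy1, Gm10591, Gm10599, Crb1, Gm17081 and Gm13301, the MPTP mice in Larp1 and the irisin mice in Gm20632.

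The other 4 negative genes lay together on chromosome 4, between 42.0 and 42.7 Mb, where the mouse genome carries tandem copies of the chemokine genes Ccl21 and Ccl27 and of the Fam205 family. CCL21 is a chemokine of lymphoid tissue that guides T cells and dendritic cells through the receptor CCR7. Gm10591, at chr4:42612121-42613253 on the plus strand, is a copy of Ccl21, listed by RefSeq under the synonyms Ccl21b and Ccl21c. The coding sequence of Gm10591 in GENCODE M21 (GRCm38) has 402 bases and differs from that of Ccl21a, at chr4:42772860-42773993 on the minus strand, at 2 positions, which is an identity of 99.5%. The stretch from position 45 to position 194 of the coding sequence, counted from 1 at the first base of the start codon, holds both differences, which are printed in capitals. It is shown because reads from most of this gene fit several copies.
Gm10591: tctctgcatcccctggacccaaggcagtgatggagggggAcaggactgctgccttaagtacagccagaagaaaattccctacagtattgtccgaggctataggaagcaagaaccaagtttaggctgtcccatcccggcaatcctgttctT
Ccl21a: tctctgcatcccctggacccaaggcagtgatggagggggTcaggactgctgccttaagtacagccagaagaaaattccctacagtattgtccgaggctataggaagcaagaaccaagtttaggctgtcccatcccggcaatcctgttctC

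Gm10591 had 0 counts in all 3 control mice. It was at 2.47, 2.24 and 2.08 CPM in irisin mice, 1.31, 3.33 and 2.27 CPM in MPTP mice and 2.27, 2 and 2.25 CPM in MPTP + irisin mice. With a floor of 3 counts per library, which is 0.0541 to 0.0614 CPM, irisin mice were at least 39.4-fold higher than control mice and MPTP mice at least 40.1-fold higher. At that floor the interaction is -5.38, and edgeR's adjusted p was 0.00237. Ccl21a, chosen after its values were seen, was at 0 to 0.23 CPM in control mice and at 0.102 to 1.24 CPM in the other 9, with overlap.

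The other 3 were pseudogenes on the plus strand, Gm10599 at chr4:42242630-42244913, Gm17081 at chr4:42239725-42242073 and Gm13301 (ENSMUSG00000096862) at chr4:42234014-42236330. Control mice held 1 read of Gm10599 in all, against 1.88 to 5.41 CPM in the other 9 mice, and the ratio of irisin to control mice from summed counts was 638, with a 95% exact interval of 114 to 25246 that covers counting error only. They held 2 reads of Gm17081 in all, against 0.982 to 2.43 CPM, and the ratio was 153 (42.0 to 1267). Gm13301 was at 0.0191 to 0.0734 CPM in control mice and 0.756 to 1.97 CPM in the others. The edgeR adjusted p-values were 0.0032, 0.0237 and 0.0262, and all 3 genes had the control mice lowest without overlap. The calls of Gm17081 and Gm13301 each held in 9 of 19 alternatives and were each lost without any one of 7 of the 12 mice.

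Over the whole window 25 of the 35 listed genes could be tested, and 23 had a negative and 2 a positive interaction, with a median of -1.55 against 0.003 over all tested genes. Of the 25, 11 were negative at an unadjusted p under 0.05 and 0 were positive, and the control mice were below all others in 10. Over all tested genes, 2.76% were negative and 2.81% positive, and the control mice were below all others in 338 (1.54%). The counts of these genes are not independent of each other. Of the words of 31 bases in the GENCODE M21 transcripts of Gm10591, 100% also occur in transcripts of other genes. The share was 95.8% for Gm17081 and 88.0% for Gm13301, against 0.894% for Crb1, 1.38% for Wdfy1, 10.3% for Larp1 and 42.4% for Gm15446. Gm10599 has no entry under its identifier in that annotation. Which copy the reads came from is therefore uncertain. The window was drawn around the 4 genes past the threshold, which its counts include.

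Gm20632, a long noncoding RNA at chr3:96239393-96241819 on the plus strand, was the only gene past the threshold in which the irisin mice stood apart on the low side. It was at 11.1, 9.65 and 9.97 CPM in control mice, 3.58, 2.38 and 2.47 CPM in irisin mice, 10.2, 9.24 and 8.22 CPM in MPTP mice and 8.67, 10.1 and 7.78 CPM in MPTP + irisin mice. The irisin mice were below the 9 others, and the interaction was 1.81 ± 0.24 (adjusted p = 0.0291, edgeR). The call held in 9 of 20 alternatives and was lost without any one of 10 of the 12 mice, with adjusted p-values of up to 0.12. The gene overlaps the replication-dependent histone gene H2ac19 on the other strand, which had 0 counts in all 12 mice. Of its words of 31 bases, 43.9% occur in other genes. The use of strand in the counting is not given in the sources used here, so reads from the overlapping genes cannot be told apart. The neighbouring histone gene H2ac18, also chosen after its values were seen, ranged from 0 CPM to at least 4.81 CPM within each group. In the pre-treatment experiment Gm20632 was at 3.02 to 5.94 CPM.

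Across the 9 genes, the control mice were the group that stood apart in 7, the irisin mice in Gm20632 and the MPTP mice in Larp1. For 8 of the 9 the 12 mice fell on 2 separate levels. By this rule the gap was at least 1.0 on the log2 scale and exceeded 0.5 of the whole range. Larp1 did not meet the rule, although none of the 12 mice lay between 77.6 and 152 CPM. Earlier results of these data had already placed Larp1 on 2 levels. The rule was met by 513 tested genes (2.34%), and by 38 (3.11%) of the 1221 with an unadjusted p under 0.05. A group far from the others favours both a small p and a wide gap, so the share among the 9 is no separate support. Of the 7 genes with the control mice apart, 6 also had an entry in the pre-treatment table. In all 6 the control mice of the delayed experiment lay outside the range of the 9 mice of that experiment, whether given MPTP or not. This was not particular to the control mice. For Gm15446 all 12 mice of the delayed experiment lay below that range, and for Gm10591 and Gm17081 the irisin and MPTP + irisin mice lay above it.

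The 3 control mice lay all above or all below the other 9 mice in 712 tested genes (3.25%), the irisin mice in 215 (0.981%), the MPTP mice in 229 (1.04%) and the MPTP + irisin mice in 171 (0.78%). Among the 1221 genes with an unadjusted p under 0.05 for the interaction the control mice stood apart in 258 (21.1%), with 113 higher and 145 lower. The irisin mice stood apart in 67 (5.49%), the MPTP mice in 70 (5.73%) and the MPTP + irisin mice in 36 (2.95%). Since a group that stands apart gives an interaction by construction, the higher shares among these 1221 genes are no separate support. The control mice also led over all tested genes, so their lead is not particular to the genes with an interaction.

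**Figure D3:**
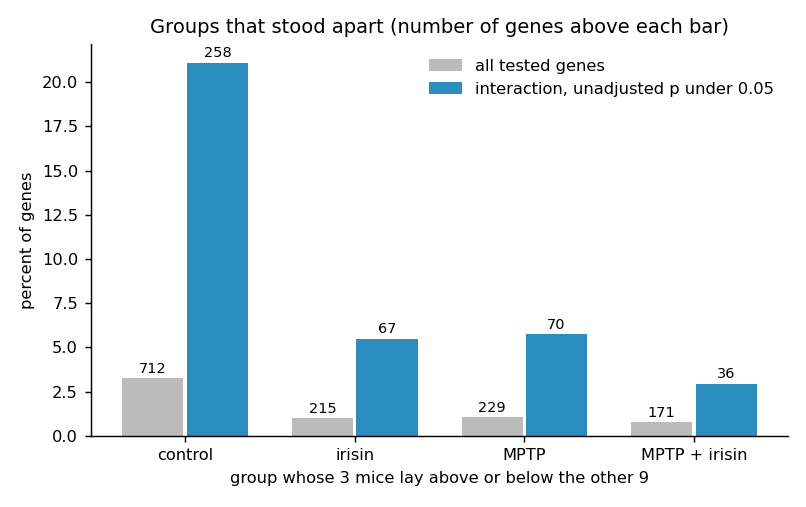
Percent of genes in which the 3 mice of a group lay all above or all below the 9 other mice, for all 21922 tested genes (grey) and for the 1221 genes with an unadjusted p under 0.05 for the interaction (blue). The control mice stood apart in 712 and 258 genes, more than any other group in each set.

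The genes with the smallest p below the threshold had the same shape in part. Gabra2 encodes the α2 subunit of the GABA-A receptor. It was at 55, 67.6 and 72.3 CPM in control mice, 37.3, 27.8 and 27.4 CPM in irisin mice, 24.7, 30.2 and 27.1 CPM in MPTP mice and 31.8, 30.0 and 28.2 CPM in MPTP + irisin mice. Control mice were again above all others, and the interaction of 1.21 ± 0.20 had an adjusted p of 0.119 in edgeR. In the pre-treatment experiment all 9 mice had 32.9 to 38.5 CPM. As background, Gabra2 expression is lowered by an intronic deletion carried by C57BL/6J mice, and Crb1 carries the rd8 frameshift in C57BL/6N mice. C57BL/6J mice also lack part of Nnt, which encodes the mitochondrial transhydrogenase.

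Nnt was added after its values were seen. Its reads were split over 2 entries of the table in 2 mice, and the sum of both entries was 42.6 to 50.6 CPM in control mice, 28 to 43.1 in irisin mice, 43.6 to 48.9 in MPTP mice and 32.9 to 44.4 in MPTP + irisin mice, with overlap. Whether the source or substrain of the mice has a part in the control pattern was not tested, and it cannot be told apart from the treatment where it would follow the groups. The interaction cannot be computed without the control mice. The irisin effect in MPTP treated mice does not use them, and Larp1 was its 1 call.

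Of the other genes named by the smallest p, control mice were also above all others for Pisd-ps1, a pseudogene of the phosphatidylserine decarboxylase gene (1.66 ± 0.29), for Enkd1 (0.81 ± 0.16) and for Gng3, a G protein γ subunit of neurons (0.38 ± 0.08). They were below all others for the zinc finger gene Zkscan3 (-1.02 ± 0.17), for Adss, an enzyme of AMP synthesis (-0.38 ± 0.08), for Tmem254c (-1.66 ± 0.33) and for the mitochondrial glycine tRNA mt-Tg (-2.31 ± 0.39). None of these passed the threshold, with edgeR adjusted p-values of 0.126 to 0.405. Irisin mice were also below all others for Enkd1, and MPTP mice also above all others for Tmem254c.

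A second shape was seen in genes whose control and MPTP + irisin mice lay together on one side, with irisin and MPTP mice on the other. Adam1a, a member of the ADAM metalloprotease family, was at 13, 14 and 14.9 CPM in control mice, 30.8, 17.5 and 34.4 CPM in irisin mice, 23.3, 35.6 and 40.3 CPM in MPTP mice and 14.6, 12.1 and 16.1 CPM in MPTP + irisin mice. The control and MPTP + irisin mice overlapped each other and lay below all 6 mice given only one agent. The interaction was -2.19 ± 0.35 (adjusted p = 0.119, edgeR). Levels of Adam1a in the pre-treatment experiment were 46.6, 44.3 and 16.4 CPM in control mice and 37.3, 43.3 and 18.3 CPM in MPTP mice. Mice given irisin and then MPTP had 27.9, 15.5 and 44.5 CPM, so that each group there held both high and low levels.

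Hk1, the hexokinase that starts glycolysis in the brain, had this shape in part, in the opposite direction, and its control mice were also above all 9 others. It was at 404, 399 and 407 CPM in control mice, 266, 292 and 281 CPM in irisin mice, 271, 381 and 282 CPM in MPTP mice and 388, 384 and 398 CPM in MPTP + irisin mice. One MPTP mouse at 381 CPM lay close to the high level, and the other 5 mice given one agent were at 266 to 292 CPM. The interaction was 0.85 ± 0.15 (adjusted p = 0.137, edgeR).

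The carboxylesterase gene Ces1d (-2.48 ± 0.43), Dok7, an adaptor of the receptor MuSK (-1.33 ± 0.24), the glutamine transporter gene Slc1a5 (-1.24 ± 0.23) and the cochaperone gene Dnajb4 (1.88 ± 0.37) also had irisin effects of opposite sign. In Dnajb4, MPTP + irisin mice were at 76.4, 29.8 and 72.8 CPM, so that the second mouse lay with the MPTP mice, which were at 29.1 to 33.3 CPM. Dok7 had the same exception with 24.3 CPM against 15.7 and 13.6 CPM. Levels of Dnajb4 in the pre-treatment experiment were 91.3, 45.8 and 34.3 CPM in control mice and 37, 41.2 and 43.5 CPM in MPTP mice. Mice given irisin and then MPTP had 81.8, 31.2 and 87.4 CPM, with overlap between all groups. Gapdh, the glycolytic dehydrogenase, which has many processed copies, varied from 73.4 to 235 CPM with overlap between groups (1.83 ± 0.40, adjusted p = 0.45, edgeR). Rps14, a protein of the small ribosomal subunit, was the only one of these genes in which the MPTP + irisin mice alone stood apart, with 140, 139 and 147 CPM against 157 to 196 CPM (-0.51 ± 0.09, adjusted p = 0.171, edgeR).

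Gene lists are described by their counts and medians, beside 2.81% positive and 2.76% negative genes and a median of 0.003 over all tested genes. The lists and pathways were chosen with earlier results of these data known. Dopaminergic neuron genes had no interaction that passed even an unadjusted p of 0.05, with 0 of 16 positive, 0 negative and a median of 0.07. Th, the rate-limiting enzyme of dopamine synthesis, was at 63.3, 59.2 and 50.9 CPM in control mice, 52.9, 49.4 and 56.8 CPM in irisin mice, 31, 31.5 and 46.0 CPM in MPTP mice and 33.8, 34.4 and 36.1 CPM in MPTP + irisin mice. All 6 mice given MPTP were below the 6 without it, and the 2 irisin effects of -0.06 ± 0.14 and -0.12 ± 0.14 gave an interaction of 0.07 ± 0.20. In bulk tissue, fewer dopaminergic neurons and less RNA per neuron cannot be told apart.

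Slc6a3, the dopamine transporter, was at 62.9, 66.2 and 67.4 CPM in control mice, 58.2, 49.9 and 66.1 CPM in irisin mice, 15.3, 24.3 and 53.5 CPM in MPTP mice and 35.1, 24.5 and 19.2 CPM in MPTP + irisin mice. One MPTP mouse at 53.5 CPM overlapped the mice without MPTP. The interaction was -0.07 ± 0.52, an error too wide to show a difference of 1.0 or less on the log2 scale. Ddc, which makes dopamine from L-DOPA, gave -0.14 ± 0.35, and the vesicular monoamine transporter Slc18a2 gave -0.11 ± 0.34. Maob, the enzyme that activates MPTP, gave 0.05 ± 0.23, and 0 of the 9 genes of MPTP conversion and dopamine breakdown had an unadjusted p under 0.05.

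Genes of irisin itself and its receptors had 0 of 12 members at an unadjusted p under 0.05 and a median of -0.03. Fndc5, the source of irisin, was at 155 to 185 CPM in all 12 mice and had an interaction of 0.10 ± 0.09. Itgav, the αV integrin subunit, was at 55.9, 13.9 and 57.5 CPM in control mice, 67.1, 66.8 and 62.5 CPM in irisin mice, 65.0, 65.5 and 19.9 CPM in MPTP mice and 63.1, 68.6 and 62.7 CPM in MPTP + irisin mice. One control mouse and one MPTP mouse stood at a low level apart from the other 10, and the interaction of -0.26 carried an SE of 0.69. Itgb5, the β5 subunit, gave 0.05 ± 0.11. The iron-sulfur cluster gene Isca1 and Yipf6, known like Larp1 from earlier results to lie on 2 levels, had similarly wide errors (-0.12 ± 0.62 and -0.52 ± 0.64).

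Of the 19 genes of the Akt and ERK kinase pathways, 0 were positive and 2 negative at an unadjusted p under 0.05. Pik3cb, a catalytic subunit of PI3 kinase, gave -0.69 ± 0.28 with overlap between groups. By KEGG terms, 11 of 294 tested genes of PI3K-Akt signaling were positive and 9 negative, as were 10 and 5 of 264 genes of MAPK signaling and 5 and 4 of 183 genes of focal adhesion. Their medians were -0.01, 0.02 and -0.05.

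Genes of the mitochondrial genome were the list with the largest share. Of its 13 protein coding genes, which encode subunits of respiratory complexes I, III, IV and V, 9 were positive and 0 negative at an unadjusted p under 0.05, and 0 passed the adjusted threshold. The median interaction was 0.28, made of 0.13 for irisin in MPTP treated mice and -0.16 for irisin in mice without MPTP. The genes were read from shared polycistronic transcripts and are not independent of each other.

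mt-Cytb, a subunit of complex III, was at 9158, 9927 and 10451 CPM in control mice, 8542, 8125 and 7904 CPM in irisin mice, 7559, 7453 and 8082 CPM in MPTP mice and 7934, 8664 and 8636 CPM in MPTP + irisin mice. The control mice were above all others, and the interaction was 0.39 ± 0.08 (adjusted p = 0.317, edgeR). mt-Nd6, a subunit of complex I encoded on the light strand, was at 1583, 1759 and 2030 CPM in control mice, 1655, 1461 and 1351 CPM in irisin mice, 1281, 1285 and 1134 CPM in MPTP mice and 1406, 1535 and 1505 CPM in MPTP + irisin mice. The MPTP mice were below all others, and the interaction of 0.53 ± 0.14 was the highest of the list. mt-Nd3 gave -0.01 ± 0.14. Control mice had the highest mean for 12 of the 13 genes, and MPTP mice had the lowest mean for 12. How often all tested genes had these orders was not counted, and the 13 genes are not independent of each other. Control mice also had the smallest libraries on average and MPTP mice the largest, and the part of library size in this result was not tested.

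**Figure D4:**
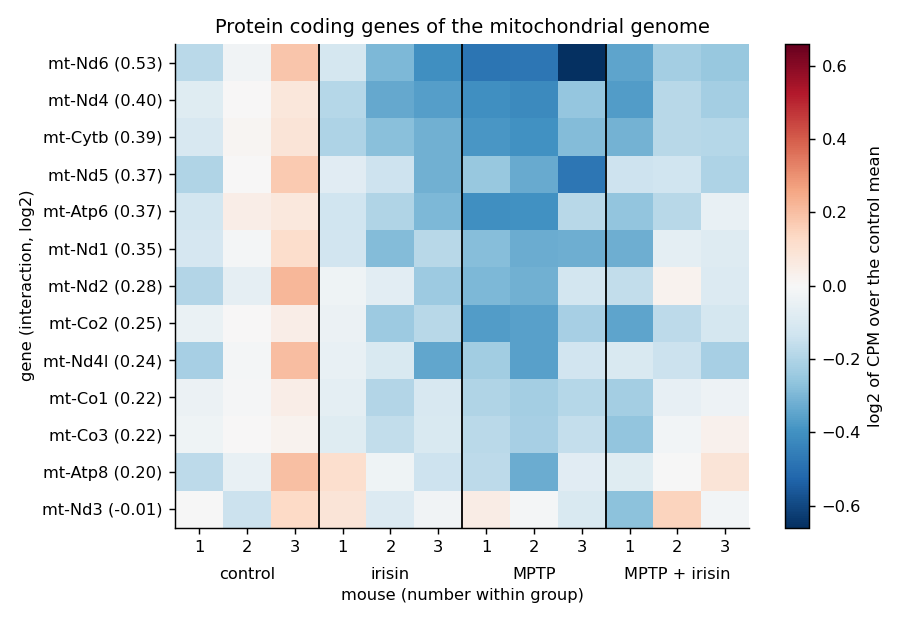
Level of the 13 protein coding genes of the mitochondrial genome in each mouse, as the log2 of CPM over the mean of the control mice (colour), with the interaction beside each gene. Control mice have the highest mean and MPTP mice the lowest mean for 12 of the 13 genes each, and interactions run from -0.01 to 0.53.

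Nuclear genes of the same complexes did not have this share. Of 36 nuclear complex I subunit genes, 0 were positive and 1 was negative, Ndufa9 (-0.20 ± 0.09), with a median of 0.06. Of 109 tested genes with the KEGG term oxidative phosphorylation, 13 were positive and 3 negative, and 9 of the 13 were the mitochondrially encoded ones. The corresponding counts were 14 and 4 of 121 for Parkinson disease and 18 and 10 of 376 for the mitochondrial inner membrane. Among 19 genes of mitochondrial biogenesis and dynamics, 0 were positive and 2 negative. Mfn2, a mitofusin, gave -0.25 ± 0.07 with control mice at 207 to 216 CPM and the others at 230 to 259 CPM, and the transcription factor gene Nrf1 gave -0.78 ± 0.26. Ppargc1a, the coactivator PGC-1α, gave 0.13 ± 0.09 and Tfam, which maintains mitochondrial DNA, 0.14 ± 0.09.

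Immediate early genes, which neurons switch on within minutes of activity, had 3 positive and 0 negative members of 21 and a median of 0.01. Dusp1, a phosphatase of MAP kinases, was at 45.4, 35.3 and 55.9 CPM in control mice, 51.7, 61.1 and 66.0 CPM in irisin mice, 19.5, 24 and 19 CPM in MPTP mice and 31.6, 48.2 and 45.4 CPM in MPTP + irisin mice. The MPTP mice were below all others, with an interaction of 0.61 ± 0.27. Ier2 had the same order of groups with 3.55 to 5.30 CPM in MPTP mice against 6.49 to 11.4 CPM (0.74 ± 0.30), and Klf2, a transcription factor of endothelium and T cells, gave 0.60 ± 0.23. The irisin effect of the list was positive in both settings, with medians of 0.30 in MPTP treated mice and 0.22 in mice without MPTP.

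Genes of blood cells were positive in 2 of 10, the calprotectin subunits of neutrophils S100a9 (1.66 ± 0.45) and S100a8 (1.58 ± 0.59), which were lowest in MPTP mice at 0.55 to 0.74 and 0.172 to 0.612 CPM. The haemoglobin markers summed to 304 to 495 CPM in MPTP mice, 378 to 859 CPM in MPTP + irisin mice, 453 to 602 CPM in control mice and 462 to 516 CPM in irisin mice, and their part in these values was not tested. Choroid plexus and ependymal genes had the highest median, 1.18, with 1 positive member of 12, the transcription factor gene Otx2 (1.19 ± 0.39). The 5 choroid plexus markers summed to 38.8 to 1538 CPM among MPTP mice and 172 to 1651 CPM among MPTP + irisin mice, and to 235 to 1501 CPM in control mice and 61.4 to 293 CPM in irisin mice. The ranges of all 4 groups overlapped, and mice of the same group differed many fold.

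Microglial genes had 0 positive and 2 negative members of 15, the Fc receptor-like gene Fcrls (-0.71 ± 0.24) and the integrin αM gene Itgam (-1.31 ± 0.44). Astrocyte genes had 2 positive members of 15, Sox9 (0.27 ± 0.11) and Lcn2 (3.01 ± 1.19), a lipocalin of reactive astrocytes and neutrophils that was at 8.04 CPM in 1 control mouse and at 0.369 to 3.32 CPM in the other 11. Gfap, the astrocyte filament protein, was at 409 to 704 CPM with an interaction of 0.19 ± 0.21, and Aif1, a microglial marker, gave -0.26 ± 0.26. Myelin and oligodendrocyte genes had 0 of 17 and a median of -0.11.

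Apoptosis genes had 1 positive member of 19, Trp53, which encodes p53 (0.42 ± 0.12, with irisin mice at 17.1 to 19 CPM below all others), and 1 negative member, Apaf1, which builds the apoptosome (-0.44 ± 0.18). Heat shock chaperone, glucocorticoid response, antioxidant, iron handling, neurotrophic factor and extracellular matrix genes had 0 of 13, 15, 17, 13, 14 and 18 tested members in either direction. One member each was negative among 14 hypoxia and glycolysis genes (the mitophagy receptor gene Bnip3, -0.23 ± 0.08), 14 circadian clock genes (Per3, -0.57 ± 0.20), 16 interferon and NF-kB genes (Icam1, -1.02 ± 0.46), 12 endothelial genes (Itm2a, -0.21 ± 0.09) and 13 pericyte and meningeal genes (Lum, -0.75 ± 0.27). Among 26 genes of neighbouring regions and neuron types Ppp1r1b, which marks striatal neurons, was positive (0.70 ± 0.30). Of 20 RNA-binding and splicing genes Larp1 alone was positive, and 0 were negative. Of the other KEGG pathways described, ribosome had 6 positive and 5 negative of 107, spliceosome 3 and 1 of 116, ether lipid metabolism 2 and 2 of 38, and lysosome 2 and 9 of 114. By GO terms, lipid metabolic process had 11 and 13 of 458, mRNA processing 10 and 5 of 325, mRNA 3'-UTR binding 3 and 1 of 68, and collagen-containing extracellular matrix 5 and 6 of 239.

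**Figure D5:**
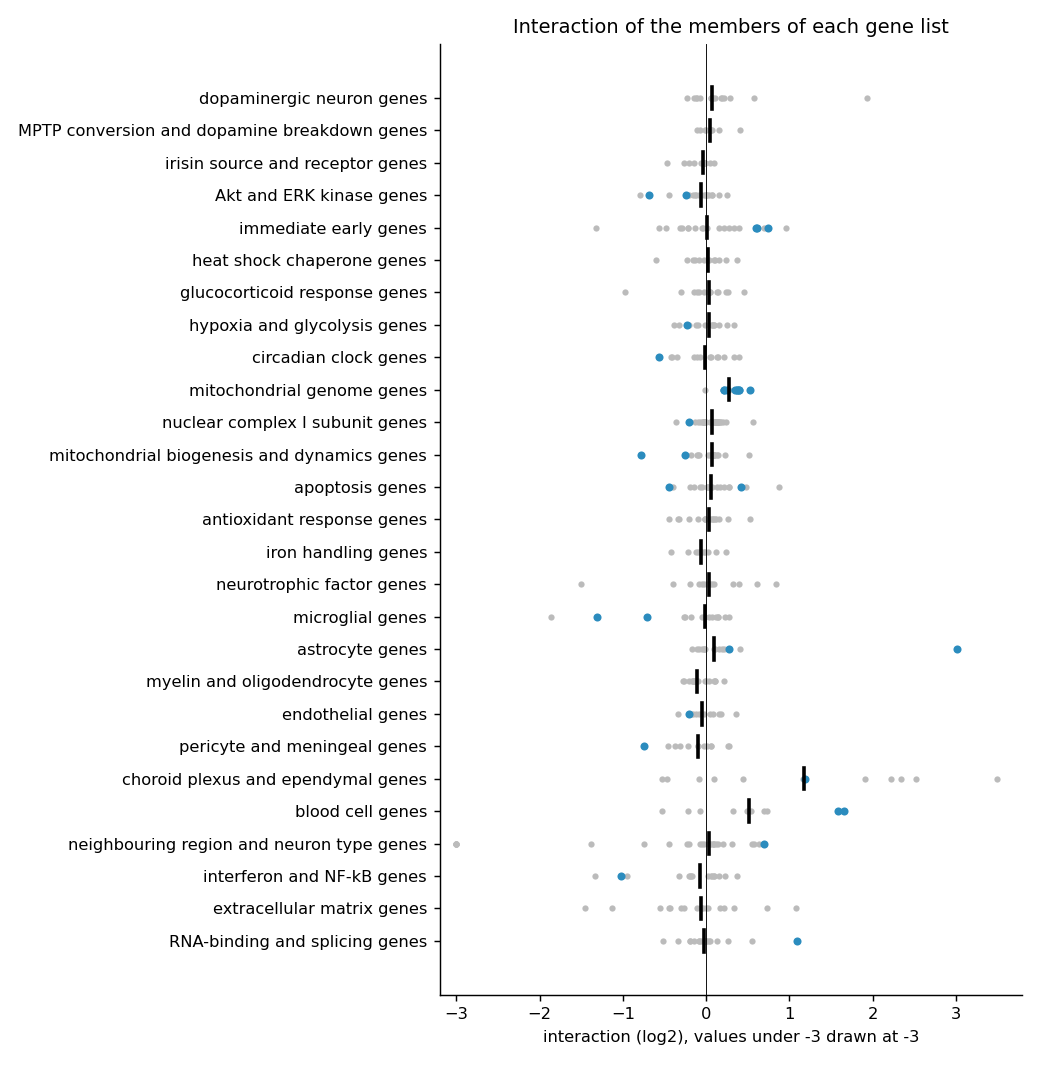
Interaction of each tested member (points, log2, horizontal axis) of 27 gene lists, with the list's median as a black bar and members with an unadjusted p under 0.05 in blue. The lowest values of the neighbouring region and neuron type genes, down to -7.53, are cut off and drawn at the left end of the axis. The 13 mitochondrial genome genes lie between -0.01 and 0.53, while dopaminergic neuron and irisin receptor lists have no blue point.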

How the data were processed

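RNA-seq was analysed for the 12 mice of the delayed treatment experiment, grouped by the labels, and 9 mice of the pre-treatment experiment gave levels for reference. The authors deposited raw read counts per gene, made with featureCounts per the methods. The same table holds FPKM values, as deposited by the authors with 0 written as 0.0001, and alternatives used them. The submitters' processing notes name HISAT, StringTie, edgeR and mm9, whereas the coordinates in the table fit GRCm38 and are given as deposited. The deposited annotation differs in part from GENCODE M21, which places Gm10591 at chr4:42612195-42612860 and lacks the identifier of Gm10599. The use of strand in counting is not given in the sources used here. Replicates are numbered mice, and p-values measure the spread between them.

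The main test was the two-sided quasi-likelihood test of edgeR 4.0.16 (R 4.3.3) on raw counts in 1 fit of all 4 groups, after TMM scaling and filterByExpr (minimum count 10, minimum total 15), at a threshold of 0.05 for p-values adjusted over all tested genes. The SE is the size of the log2 value divided by the square root of F. CPM are TMM-scaled. Standing apart means that the 3 mice of a group lie all above or all below the other 9, a rule made after seeing the data. The members, gene lists and pathways were chosen with earlier results of these data known. Named genes were all past the threshold, the 10 with the smallest p in each direction that have a gene symbol other than a Gm or Rik name, up to 4 members per list with an unadjusted p under 0.05, and fixed genes of the paths concerned. Ccl21a, Nnt, H2ac18 and H2ac19 were added after seeing values. A gene that the naming rule selects is not reported here.

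Alternatives were median ratio scaling, any count, a mean FPKM of at least 1, DESeq2 1.42.0, a robust spread, limma 3.58.1 on log2(FPKM + 1) or (FPKM + 0.1), a replicate block, and leaving out each of the 12 mice. Within groups, no 2 mice agreed within sampling noise (chi-square per gene of at least 36.9). The scripts were tested on simulated counts.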

Additional observations from a re-analysis of the deposited data

Results flagged for a closer look

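The 9 genes past the threshold of the interaction were found by a direct test. It compared the fold change of irisin over control mice with that of MPTP + irisin over MPTP mice. The interaction values of these genes were -4.35 for Gm15446, 1.72 for Wdfy1, 1.09 for Larp1, -2.82 for Crb1, -5.44 for Gm13301 and 1.81 for Gm20632. With the control mice set at the floor of 3 counts per library they were -5.38 for Gm10591, -5.98 for Gm10599 and -4.81 for Gm17081. The control mice stood apart in 7 of the 9, the MPTP mice in Larp1 and the irisin mice in Gm20632, and the cause was not tested.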

How the results depend on the processing

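Gm15446, Wdfy1 and Larp1 passed the threshold in all 20 alternatives. The 9 interaction calls became 62 with DESeq2 without a filter and 3 with limma on log2(FPKM + 1), and the cause was not tested. DESeq2 gave 34 and 144 calls for irisin with and without MPTP, and 178 and 35 for MPTP without and with irisin. All genes with any count, and a robust spread, each gave 2 calls for irisin in MPTP treated mice. Leaving out each mouse gave 7 to 19 interaction calls (19 without irisin mouse 1, and 7 to 11 otherwise), 1 to 7 and 16 to 29 calls for irisin with and without MPTP, and 16 to 35 and 0 to 10 for MPTP without and with irisin. Gm20632 was past the threshold in 9 of 20 alternatives, with an adjusted p (edgeR, DESeq2 or limma) of 0.12 at most, and Gm17081 and Gm13301 in 9 of 19 each.

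The same-numbered mice were not shown to be paired, as 0 of 18 pairs correlated over 0.1 (-0.0765 to 0.0387) and 0 of 12 mice correlated best with their own number. With the replicate block the interaction had 7 calls, irisin without MPTP 14 and MPTP without irisin 17. Interactions near 0 changed sign. Slc6a3 gave 0.06, 0.07 and 0.05 with limma on log2(FPKM + 1), limma on log2(FPKM + 0.1) and the replicate block. Nnt gave 0.02, 0.08 and 0.00 in the same order. The Nnt values are those of the entry ENSMUSG00000025453 alone, without the reads split to its other entry. Over the fits that each left out 1 mouse, the interaction ranged from -0.03 to 0.28 for Th, -0.39 to 0.58 for Slc6a3, -0.39 to 0.19 for Ddc and -0.33 to 0.11 for Slc18a2. It ranged from -0.12 to 0.21 for Maob, -0.63 to 0.16 for Itgav, -0.02 to 0.13 for Itgb5, -0.72 to 0.13 for Isca1 and -0.52 to 0.48 for the same Nnt entry. No alternative leaves out the control group, since the interaction needs it.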
